A study of Mus musculus with 12 samples.

Results

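The genes described here make, sense and clear prostaglandins. They were 10 listed genes, taken by gene symbol from the array's annotation, and 9 of the 10 had a probe set that named that gene alone, out of 19938 genes measured that way. Ptgs1, which encodes the constitutive cyclooxygenase, had no probe set under its symbol and was not analysed here. The other 9 had 1 such probe set each.

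The cells were cardiac colony-forming-unit fibroblasts (cCFU-F) in bulk culture at passage 0, grown from C57BL/6 male mice aged 12 weeks after sorting heart cells for SCA1 and PDGFRα and against CD31. Expression was measured on 12 arrays, 3 in each of 4 groups. The groups were cells given PDGF-AB at 50 ng/ml (a ligand of the PDGF receptors), cells given AG1296 at 10 uM, cells given AG1296 at 1 uM and untreated cells. AG1296 blocks the kinase of PDGF receptors and, less selectively, of some related receptors. The sources used here give no time of treatment, no vehicle and no pooling of animals, so an effect of a vehicle cannot be told apart from that of a treatment. All values are log2 expression per probe set, and array medians lay between 4.02 and 4.13.

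All 9 fibroblast markers, among them Col1a1, Pdgfra and Tcf21, lay above the array median on every array. Of the 7 endothelial markers 0 did so on every array in PDGF-AB, AG1296 10 uM and untreated cells and 1 did at AG1296 1 uM, and of the 6 mast cell markers 0 did in any group. For 9 macrophage and leukocyte markers the count was 1 to 2 per group, for 7 pericyte and smooth muscle markers 2 to 3 and for 6 cardiomyocyte markers 1 to 2. In contrast, 5 of the 6 mesothelial and epicardial markers lay above the median on every array.

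Prostaglandins are lipid signals made from arachidonic acid. Cytosolic phospholipase A2, encoded by Pla2g4a, cuts arachidonic acid out of membranes, and a cyclooxygenase then turns it into prostaglandin H2. Ptgs2 encodes the inducible cyclooxygenase, known to respond to growth factors and cytokines in fibroblasts. Synthases convert that product into prostaglandin E2 (Ptges), prostacyclin (Ptgis) or prostaglandin D2 (Ptgds). The products act on G-protein-coupled receptors such as those encoded by Ptger2, Ptger4 and Ptgfr, and the dehydrogenase encoded by Hpgd inactivates them.

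Of the 9 listed genes that were measured, Pla2g4a and Ptgs2 fell with the inhibitor. Ptgs2 and Pla2g4a are neighbours on mouse chromosome 1 and are read outward from each other, with 138.7 kb between their first starts and 0 protein-coding genes between them. Their start regions are shown because these were the members whose expression fell; the sequences are those of RefSeq on build GRCm38.p6. For Ptgs2 (plus strand) the 250 bases before the start, chr1:150099781-150100030, and 30 bases just after it, chr1:150100034-150100063, are given, and for Pla2g4a (minus strand) the 250 bases before the more upstream of its 2 starts, chr1:149961291-149961540. Capitals mark matches to the motifs searched.
Ptgs2 before start: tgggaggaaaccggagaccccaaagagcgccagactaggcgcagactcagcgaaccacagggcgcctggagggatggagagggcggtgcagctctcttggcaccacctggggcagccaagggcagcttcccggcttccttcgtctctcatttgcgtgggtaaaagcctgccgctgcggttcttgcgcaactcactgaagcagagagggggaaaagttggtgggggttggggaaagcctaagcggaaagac
Ptgs2 after start: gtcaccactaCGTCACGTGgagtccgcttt
Pla2g4a before start: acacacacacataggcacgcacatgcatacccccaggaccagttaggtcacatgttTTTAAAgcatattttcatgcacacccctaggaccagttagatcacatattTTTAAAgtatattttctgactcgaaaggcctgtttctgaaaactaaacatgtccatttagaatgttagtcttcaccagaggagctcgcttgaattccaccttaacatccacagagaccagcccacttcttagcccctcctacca

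The capitals after the Ptgs2 start hold CGTCA, the complement of TGACG (the core of a cAMP response element), at positions 14 to 18 counted from 1 at the start, and the E-box CACGTG at 17 to 22, which overlaps it. On either strand, TGACG was present in 20.8% of all 32851 RefSeq windows of 300 bases and CACGTG in 7.15%. The Pla2g4a stretch holds TTTAAA at -194 to -189 and at -144 to -139, a word found in 13.2% of the windows. The AP-1 site TGACTCA, the TATA-like TATAAA and the GC box CCCGCCC, present in 5.2%, 13.6% and 25.6% of windows, were not in the 300-base window of either gene. A match describes the letters only. All positions rest on the RefSeq starts, and where transcription begins in these cells was not examined. Sites counted here as after the start, and motifs not found, depend on that choice of start.

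Pla2g4a was lower on all 6 arrays of cells given AG1296. Its log2 expression (probe set 10358434) was 7.58, 7.83 and 7.84 with PDGF-AB, 6.43, 6.59 and 6.46 with AG1296 10 uM, 6.42, 6.53 and 6.28 with AG1296 1 uM, and 7.61, 7.68 and 7.47 in untreated cells. The inhibitor groups thus lay below the other groups with no overlap, whereas PDGF-AB and untreated arrays overlapped. Against untreated cells the log2 fold change was -1.09 ± 0.10 (SE) at 10 uM, a 2.13-fold lower level (limma, adjusted p = 6.46e-05), and -1.18 ± 0.10 at 1 uM, 2.26-fold lower (adjusted p = 1.36e-05). The difference between the doses, 0.08 with a 95% interval from -0.14 to 0.31, did not pass (adjusted p = 0.868), nor did the change with PDGF-AB, 0.16 with an interval from -0.06 to 0.38 (adjusted p = 0.704).

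Ptgs2 showed the larger fall. Its log2 expression (probe set 10350516) was 9.50, 9.72 and 9.80 with PDGF-AB, 7.63, 7.78 and 7.67 with AG1296 10 uM, 7.98, 7.96 and 7.77 with AG1296 1 uM, and 9.39, 9.44 and 9.33 in untreated cells. The 3 PDGF-AB arrays were the highest of the 12, above every untreated array, and the 6 inhibitor arrays were the lowest. Against untreated cells the log2 fold change of Ptgs2 was -1.70 ± 0.10 (SE) at 10 uM, a level 3.24-fold lower (limma, adjusted p = 1.66e-06), and -1.48 ± 0.10 at 1 uM, 2.80-fold lower (adjusted p = 1.22e-06). The difference with PDGF-AB was 0.29 ± 0.10, with a 95% interval from 0.07 to 0.50, and did not pass over all genes (adjusted p = 0.388). In order of level the groups ran PDGF-AB, untreated, AG1296 1 uM and AG1296 10 uM, and the first and last pairs of neighbours did not differ beyond the threshold; between the doses the difference was -0.21, with an interval from -0.42 to 0.00 (adjusted p = 0.555).

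Together the members' calls were 2 of 9 at AG1296 10 uM, where 1.88% of all genes were called, and 2 of 9 at AG1296 1 uM, where 3.2% were called. Both calls at each dose were falls of Ptgs2 and Pla2g4a, and each was kept under all 20 alternative settings, with fold changes on the log2 scale from -1.74 to -1.05 (adjusted p up to 0.00176). Earlier results of these data had already shown some of these falls when the genes were listed, so the count is no independent evidence. With PDGF-AB 0 of 9 were called by limma, against 0.331% of all genes; 2 of 9 had an unadjusted p under 0.05, against 8.55%. Between 10 uM and 1 uM 0 of 9 were called, against 0.376%, and 3 of 9 had an unadjusted p under 0.05, against 9.07%. The unadjusted counts against untreated were 3 of 9 at both 10 uM (11.4% of all genes) and 1 uM (13.1%).

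Arrays that did not overlap were seen for 2 members with PDGF-AB against untreated (13.3% of all genes), for 3 at AG1296 10 uM (18% of all genes), for 3 at AG1296 1 uM (20.3%) and for 2 between the doses (15.9%). The median log2 fold change of the 9 was 0.10 with PDGF-AB, -0.08 at AG1296 10 uM and 0.00 at AG1296 1 uM, beside medians over all genes of 0.01, 0.01 and -0.01. An F test over the 4 groups, added after the values were seen, called 3 of the 9 (5% of all genes): Ptgs2, Pla2g4a and Ptger4.

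**Figure D1:**
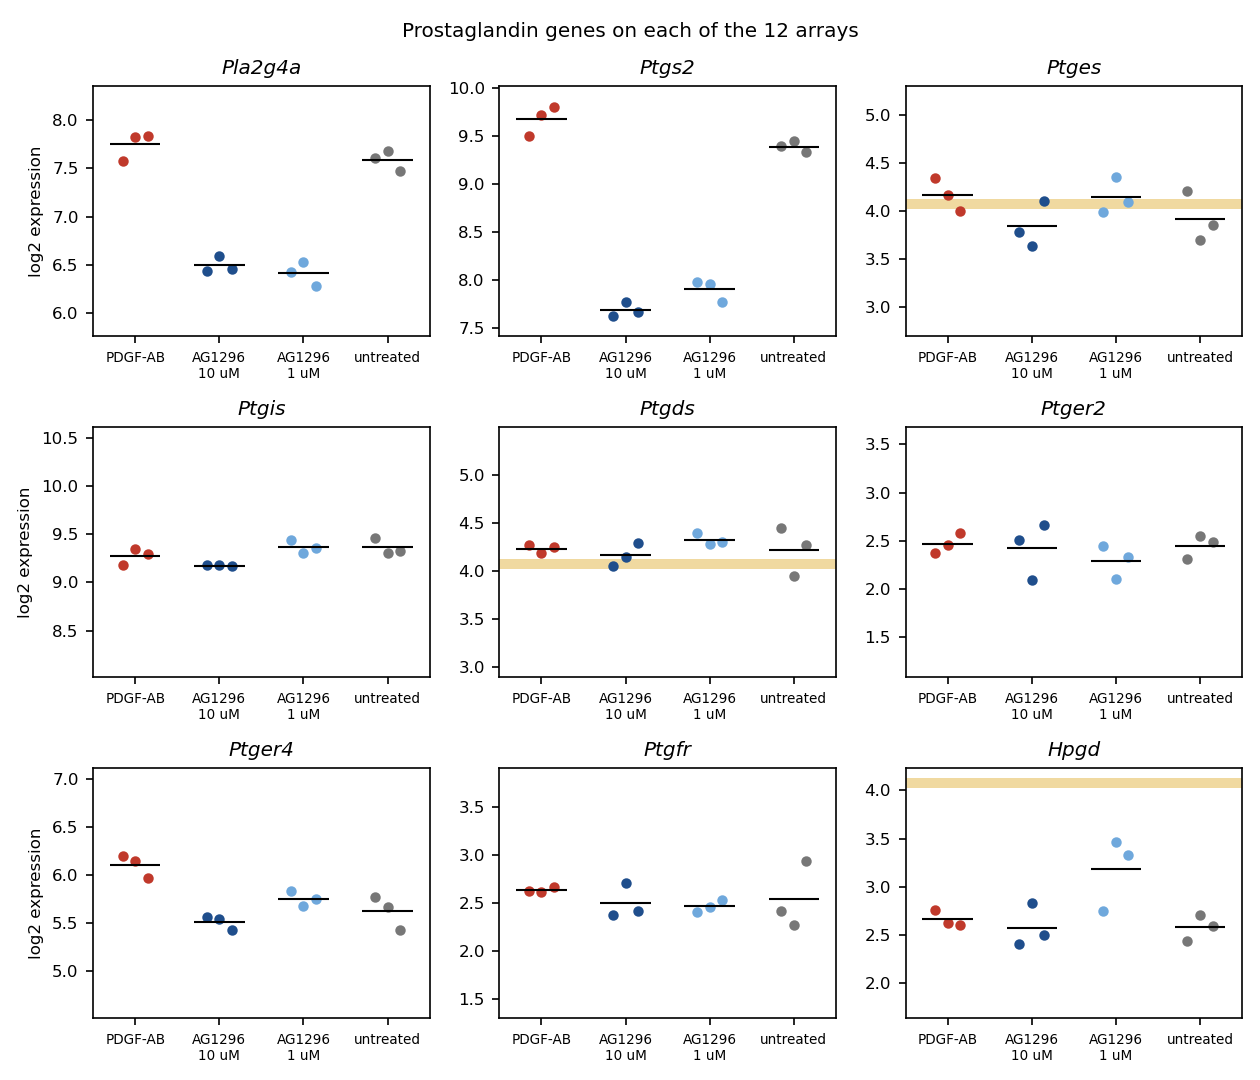
Log2 expression of the 9 measured prostaglandin genes on each of the 12 arrays, by group; points are arrays, black lines group means, each panel is centred on its gene with the same height in log2 units, and the shaded band, where it falls in a panel, is the range of the array medians. Pla2g4a and Ptgs2 sit lower on the 6 AG1296 arrays, Ptger4 is highest on the 3 PDGF-AB arrays, and Ptger2, Ptgfr and Hpgd lie below the array medians throughout.

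Some cell type markers changed with the inhibitor as well. Of the 6 mesothelial and epicardial markers 0 rose and 2 fell at AG1296 10 uM, 1 rose and 3 fell at 1 uM, and 0 were called with PDGF-AB (2 with an unadjusted p under 0.05). Averaged over the 6 markers of that list, arrays lay between 5.08 and 5.26 with PDGF-AB, between 4.90 and 5.04 at AG1296 10 uM, between 4.93 and 5.04 at AG1296 1 uM, and between 5.28 and 5.34 in untreated cells. The urothelial and mesothelial gene Upk1b changed by -1.13 at 10 uM (limma, adjusted p = 2.09e-05) and -0.82 at 1 uM (adjusted p = 0.000109), and Lrrn4 by -0.84 and -0.72 (adjusted p = 0.00545 and 0.0106). Krt19 fell by 0.72 at 1 uM (adjusted p = 0.0158), whereas Upk3b rose by 0.55 at 1 uM (adjusted p = 0.00511) and Msln and Wt1 were not called. With PDGF-AB the list average was below that of every untreated array. There Upk3b stood at -0.49, Upk1b at -0.23, Lrrn4 at -0.20 and Krt19 at -0.15, while Msln stood at 0.08 and Wt1 at 0.07.

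Of the 9 fibroblast markers 3 rose and 1 fell at each AG1296 dose, and 0 were called with PDGF-AB (3 with an unadjusted p under 0.05). Their average lay between 9.34 and 9.45 with PDGF-AB, between 9.50 and 9.53 at AG1296 10 uM, between 9.46 and 9.52 at 1 uM and between 9.27 and 9.33 in untreated cells. The proteoglycan gene Dcn changed by 0.75 at 10 uM (limma, adjusted p = 0.00155) and 1.70 at 1 uM (adjusted p = 8.21e-07), and the collagen genes Col1a1 and Col3a1 also rose at both doses. Pdgfra, which encodes a PDGF receptor, changed by -0.40 at 10 uM (adjusted p = 0.0361) and -0.91 at 1 uM (adjusted p = 3.84e-05). Of the endothelial markers Tek rose by 0.73 at 1 uM (adjusted p = 0.000761), and of the pericyte and smooth muscle markers Myh11 rose by 0.54 at 10 uM (adjusted p = 0.0398). Of the cardiomyocyte, macrophage and leukocyte, and mast cell markers 0 were called by limma in any comparison, with up to 2 of a list at an unadjusted p under 0.05. The part of any of these cells in the prostaglandin results was not tested. In bulk cultures, fewer cells of a type and less RNA per cell cannot be told apart.

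The 3 synthases were not called in any of the 4 comparisons. Ptgis, which encodes prostacyclin synthase, was at 9.18, 9.34 and 9.29 with PDGF-AB, 9.18, 9.18 and 9.17 with AG1296 10 uM, 9.44, 9.31 and 9.36 with AG1296 1 uM, and 9.46, 9.30 and 9.33 in untreated cells. The 10 uM arrays lay below all untreated and 1 uM arrays, with an SD of 0.01, but the difference from untreated was small, -0.19 with a 95% interval from -0.37 to -0.01 (limma, adjusted p = 0.39). Ptges, the inducible prostaglandin E synthase, averaged 4.17 ± 0.17 with PDGF-AB, 3.84 ± 0.24 with AG1296 10 uM, 4.15 ± 0.19 with AG1296 1 uM and 3.92 ± 0.26 in untreated cells (SD, n = 3). Those values straddled the array medians and the groups overlapped. Ptgds, the prostaglandin D synthase, ranged from 3.95 to 4.44, with both extremes among the untreated arrays, and its 3 fold changes against untreated lay between -0.05 and 0.10.

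Among the receptors, Ptger4 stood out with the ligand. It encodes EP4, a receptor of prostaglandin E2 that raises cAMP. Its log2 expression was 6.19, 6.15 and 5.97 with PDGF-AB, 5.56, 5.54 and 5.43 with AG1296 10 uM, 5.83, 5.67 and 5.75 with AG1296 1 uM, and 5.77, 5.67 and 5.43 in untreated cells. Each PDGF-AB array was above each of the other 9. The difference from untreated was 0.48 ± 0.10, or 1.40-fold, with a 95% interval from 0.26 to 0.70, and it did not pass over all genes (limma, adjusted p = 0.084). It passed in 3 of 20 alternative settings, with dim genes left out (0.0226), with an intensity trend and robust moderation (0.0284) and with the replicate number as a block (0.0467), and the adjusted p ran from 0.0226 to 0.343 over the 20. In the F test over the 4 groups Ptger4 was called (adjusted p = 0.0117), a call lost without PDGF-AB replicate 1 (0.0543) or replicate 2 (0.0572) and kept in 17 of 19 settings (0.0026 to 0.0572). Against untreated cells the inhibitor groups differed by -0.11 at 10 uM and 0.13 at 1 uM, neither of them called (adjusted p = 0.788 and 0.684).

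Ptger2, which encodes EP2, the other prostaglandin E2 receptor coupled to cAMP, ranged from 2.10 to 2.67 over the 12 arrays. Ptgfr, the receptor of prostaglandin F2α, ranged from 2.27 to 2.93. Both were below their own array's median on all 12 arrays, where background limits any fold change, and their fold changes against untreated lay between -0.16 and 0.10 with 0 calls.

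Hpgd, the enzyme that inactivates prostaglandins, was at 2.76, 2.63 and 2.60 with PDGF-AB, 2.40, 2.83 and 2.49 with AG1296 10 uM, 2.75, 3.46 and 3.33 with AG1296 1 uM, and 2.44, 2.71 and 2.59 in untreated cells. The 1 uM arrays lay above the untreated ones, replicate 1 by little, and all 12 were below their array medians. At 1 uM the difference was 0.60 ± 0.16 (limma, adjusted p = 0.0718), which did not pass. Without AG1296 1 uM replicate 1 it was 0.82 and was called (adjusted p = 0.00661), as it was with a replicate block (0.0398) and with an intensity trend and robust moderation (0.0365); over 19 settings the adjusted p ran from 0.00661 to 0.277. The difference between 10 uM and 1 uM was -0.60 (adjusted p = 0.207), and it passed only without AG1296 1 uM replicate 1 among 19 settings (0.0464, with the highest at 0.548).

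**Figure D2:**
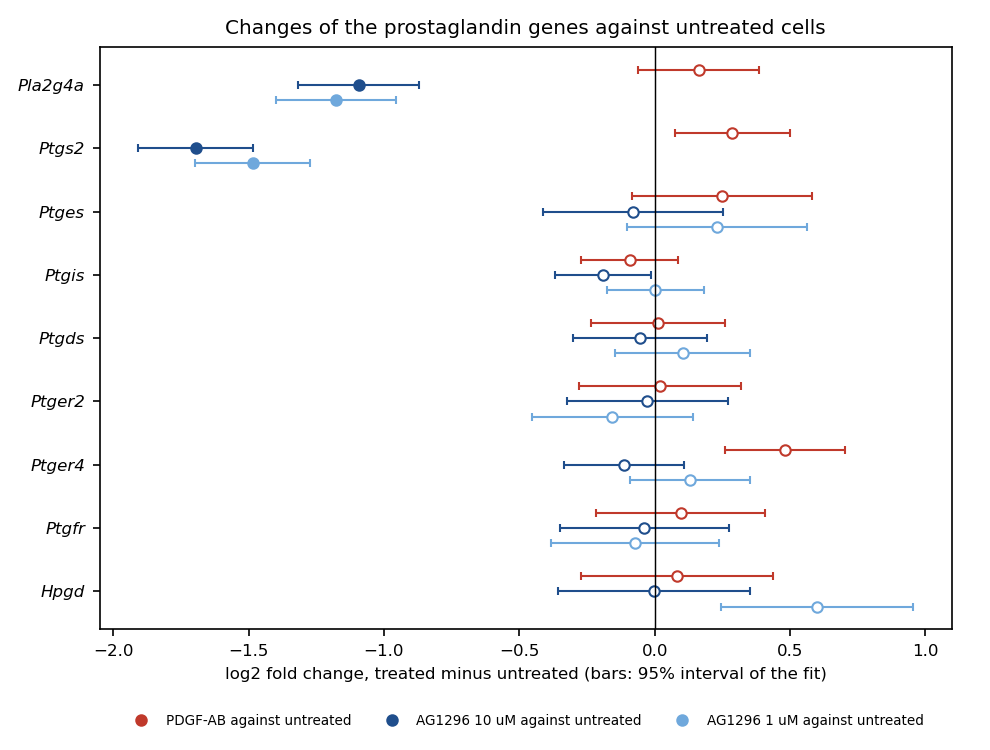
Log2 fold change of the 9 prostaglandin genes, treated minus untreated, with the 95% interval of the fit (n = 3 arrays per group). Filled points passed at an adjusted p under 0.05 over all genes and open points did not; the 4 filled points are Pla2g4a and Ptgs2 at both AG1296 doses, between -1.70 and -1.09.

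The protein-coding genes beside Pla2g4a and Ptgs2 were looked at after the falls of that pair were known. On the side of Pla2g4a these were Brinp3, Rgs18 and Rgs21, and on the side of Ptgs2 Pdc and Odr4; the third, Tpr, was not analysed here. At AG1296 10 uM their log2 fold changes lay between -0.14 (Rgs21) and 0.22 (Pdc), and at 1 uM between -0.03 (Rgs21) and 0.05 (Odr4), with 0 calls against untreated. Brinp3, Rgs18, Rgs21 and Pdc were below the array median on all 12 arrays, where background limits any fall that the arrays could show. Odr4 was above it, at 5.73 ± 0.16 with AG1296 10 uM, 5.76 ± 0.25 with AG1296 1 uM and 5.71 ± 0.21 in untreated cells (SD, n = 3).

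**Figure D3:**
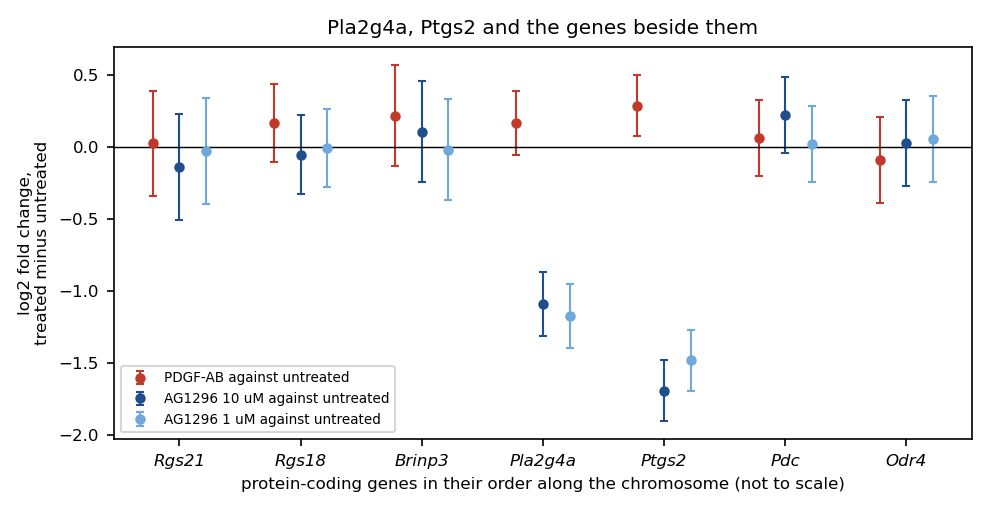
Log2 fold change against untreated, with the 95% interval of the fit, of Pla2g4a, Ptgs2 and 5 neighbouring protein-coding genes in chromosomal order (not to scale). Pla2g4a and Ptgs2 lie between -1.70 and -1.09 at both AG1296 doses, and the 5 others lie between -0.14 and 0.22 in the 3 comparisons shown.

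Likeness of pattern was measured as the mean absolute difference over the 12 arrays, after each gene's own untreated mean was subtracted. Nearest to Ptgs2 among 17055 ranked genes were Esm1, an endothelial-type proteoglycan, at 0.15, and Nqo1, a quinone reductase, at 0.17. Hmga2, an architectural chromatin protein, was at 0.24, the surface glycoprotein Cd24a at 0.25, and Ch25h, which makes an oxysterol, at 0.27. Pla2g4a ranked 6 among the genes nearest to Ptgs2 (0.27). Relative to untreated cells Esm1 stood at 0.23 with PDGF-AB, -1.96 at AG1296 10 uM and -1.68 at 1 uM, and Nqo1 at 0.43, -1.77 and -1.81. For the 5 genes the differences lay between 0.23 and 0.60 with PDGF-AB and between -2.01 and -1.06 at 1 uM.

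Pla2g4a had closer companions. The inositol transporter Slc5a3 was at a mean difference of 0.10, the serotonin receptor Htr2a at 0.10, the glutathione transferase Gsto2 at 0.11, the semaphorin Sema3a at 0.15 and the G-protein regulator Rgs16 at 0.16. Ptgs2 ranked 26 in that order. These 5 stood between -0.97 and -0.73 at 10 uM and between -1.31 and -1.08 at 1 uM. Each was thus lower at 1 uM than at 10 uM in the mean, as Pla2g4a was. The 5 were chosen for likeness over these same arrays, so a shared order is no separate result. The difference between the doses was not called for any of them or for Pla2g4a, though Sema3a passed in 3 of 20 alternative settings.

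**Figure D4:**
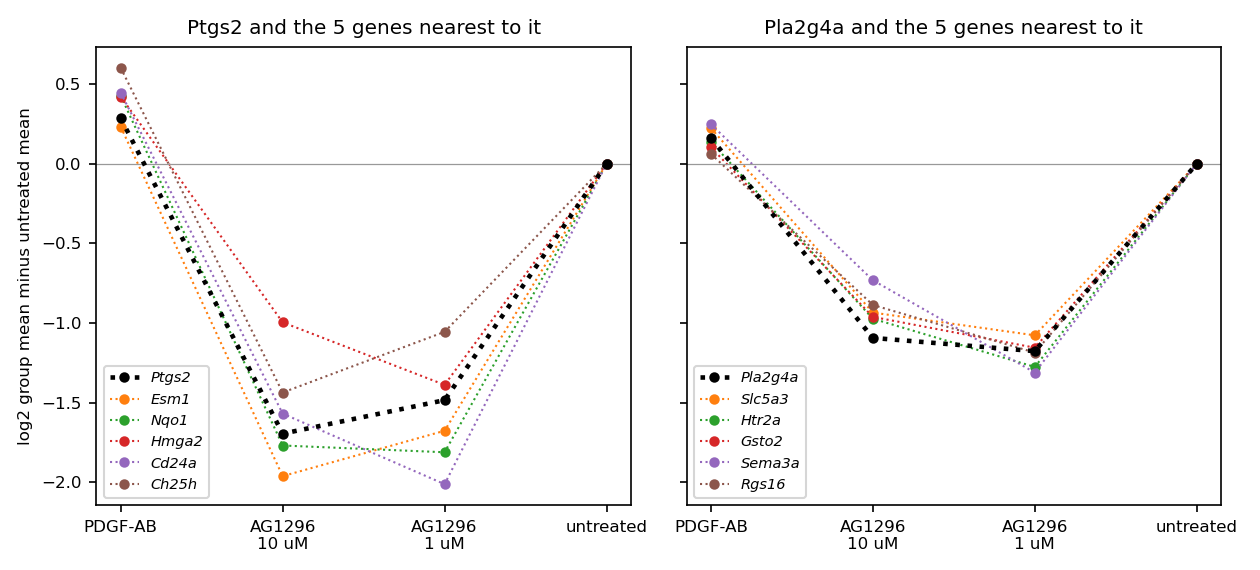
Group means (log2) minus the untreated mean for Ptgs2 and Pla2g4a (black) and the 5 genes nearest to each; n = 3 arrays per group, and dotted lines only join the groups of 1 gene. The genes were chosen for this likeness: all stand at most 0.60 above untreated with PDGF-AB and at least 0.73 below it at both AG1296 doses.

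Of 87 other listed gene symbols of eicosanoid metabolism, 79 were measured. The 87 include both an old and a new symbol of some genes, such as Pla2g16 and Plaat3. At AG1296 10 uM 1 rose and 1 fell (2.53% called, against 1.88% of all genes), and at AG1296 1 uM 2 rose and 3 fell (6.33%, against 3.2%). With PDGF-AB 0 rose and 2 fell (2.53%, against 0.331%). Between the doses 0 were called by limma. An unadjusted p under 0.05 was seen for 17 of the 79 at 10 uM (11.4% of all genes) and 14 at 1 uM (13.1%). With PDGF-AB it was seen for 10 (8.55%) and between the doses for 10 (9.07%). The medians of the whole list, 0.03 at 10 uM, -0.01 at 1 uM and 0.05 with PDGF-AB on the log2 scale, lay close to the medians over all genes. By role, 0 of 10 further synthases and 0 of 7 further genes on the receptor list were called in any comparison. The receptor list also held Ptgfrn, which encodes a regulator and not a receptor. Of 15 lipoxygenase and leukotriene genes 0 were called in any comparison. In that order, 2, 3 and 0 had an unadjusted p under 0.05 at 10 uM, 2, 0 and 2 at 1 uM and 1, 0 and 0 with PDGF-AB. Of 8 genes of transport and breakdown 1 fell at 10 uM and 3 fell at 1 uM. Of these 8, 3 had an unadjusted p under 0.05 at 10 uM, 4 at 1 uM and 4 with PDGF-AB.

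The clearest of these was Slco2a1, the prostaglandin transporter that takes prostaglandins up into cells. It was at 8.30, 8.54 and 8.81 with PDGF-AB, 7.41, 7.42 and 7.54 with AG1296 10 uM, 7.59, 7.54 and 7.67 with AG1296 1 uM, and 8.19, 8.21 and 8.16 in untreated cells. The order of the groups was the same as for Ptgs2 and no inhibitor array overlapped an untreated one. The change was -0.73 ± 0.11 at 10 uM (limma, adjusted p = 0.00373) and -0.59 ± 0.11 at 1 uM (adjusted p = 0.00994), and both passed. With PDGF-AB it was 0.37, which missed the threshold (adjusted p = 0.324). The call at 1 uM was lost without AG1296 1 uM replicate 2 (adjusted p = 0.0501) and kept in 19 of 20 settings (from 0.000266).

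Further falls at 1 uM were those of Abcc1, an efflux pump known for leukotriene export, at -0.43 (limma, adjusted p = 0.0103), and of Slco3a1, an organic anion transporter, at -0.38 (adjusted p = 0.0295). At 10 uM these stood at -0.33 and -0.15 and did not pass (adjusted p = 0.0647 and 0.586). Abcc1 at 10 uM passed in 3 of 20 settings (from 0.00269), and its call at 1 uM did not survive the removal of untreated replicate 1 or of AG1296 1 uM replicate 2 (up to 0.0576), and that of Slco3a1 was lost in 6 of 20 settings, among them without AG1296 1 uM replicate 1 or 2 or any untreated replicate (up to 0.124).

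Ephx2 and Mgll were lower with PDGF-AB and higher at AG1296 1 uM, and Ephx2 was also higher at 10 uM. Ephx2, the soluble epoxide hydrolase that breaks down epoxides of arachidonic acid, was at 5.18, 5.16 and 5.22 with PDGF-AB, 6.14, 6.29 and 6.12 with AG1296 10 uM, 6.37, 6.46 and 6.38 with AG1296 1 uM, and 5.66, 5.93 and 5.60 in untreated cells. It was lower with the ligand, at -0.55 ± 0.10 (limma, adjusted p = 0.0288), and higher with the inhibitor, at 0.45 ± 0.10 for 10 uM (adjusted p = 0.0276) and 0.67 ± 0.10 for 1 uM (adjusted p = 0.00116). Mgll, a lipase that frees arachidonic acid from the endocannabinoid 2-arachidonoylglycerol, changed by -0.56 ± 0.08 with PDGF-AB (adjusted p = 0.0073), by 0.19 at 10 uM (adjusted p = 0.349) and by 0.39 ± 0.08 at 1 uM (adjusted p = 0.0125). For both genes the 3 PDGF-AB arrays lay below, and the 6 inhibitor arrays above, the untreated ones.

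Only the Ephx2 call at 1 uM held in all 20 settings. With PDGF-AB the Ephx2 call was lost in 11, among them without any 1 of the PDGF-AB or untreated arrays, without AG1296 1 uM replicate 1 or 3 and without AG1296 10 uM replicate 1 (adjusted p up to 0.204), and at 10 uM it was lost in 7, among them without any 1 of the AG1296 10 uM arrays or untreated replicate 1 or 3 (up to 0.141). For Mgll the PDGF-AB call was lost in a fit of only the 6 arrays compared and when untreated replicate 1 was removed (up to 0.124), and at 1 uM without AG1296 1 uM replicate 1 or 2, without untreated replicate 2 or 3 and in the fit of 6 arrays (up to 0.0723).

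Of 29 known regulators of Ptgs2 transcription or mRNA, 27 were measured. With PDGF-AB 1 rose and 0 fell (0.331% of all genes were called), at AG1296 1 uM 1 rose and 1 fell (3.2% of all genes), and at 10 uM 0 were called (1.88% of all genes). An unadjusted p under 0.05 was seen for 4 of the 27 with PDGF-AB (8.55% of all genes), 5 at 10 uM (11.4%) and 6 at 1 uM (13.1%). Fosl1, an AP-1 subunit, was at 6.37 ± 0.06 with PDGF-AB, 5.53 ± 0.14 with AG1296 10 uM, 5.39 ± 0.16 with AG1296 1 uM and 5.82 ± 0.11 in untreated cells (SD, n = 3). Like Ptgs2 it was highest in the mean with PDGF-AB and lower at both AG1296 doses than in untreated cells. Its differences were 0.55 with PDGF-AB (limma, adjusted p = 0.048), -0.29 at 10 uM (adjusted p = 0.272) and -0.43 at 1 uM (adjusted p = 0.0438). These 2 calls were lost in 14 and 12 of 20 settings (up to 0.224 and 0.171), with the replicate block among them (0.08 and 0.064). The first was lost without any 1 of the PDGF-AB or untreated arrays and without replicate 1 or 2 of either inhibitor group. The second was lost without any untreated array, without AG1296 1 uM replicate 2 or 3, AG1296 10 uM replicate 1 or 2 or PDGF-AB replicate 2 or 3. Cebpd, a C/EBP transcription factor known to bind the Ptgs2 promoter, rose by 0.73 ± 0.14 at 1 uM (adjusted p = 0.00808), opposite to Ptgs2, and stood at 0.50 at 10 uM (adjusted p = 0.101, passed in 3 of 20 settings); the 1 uM call was lost in the fit of only the 6 arrays compared (0.0526).

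Genes known to respond to cAMP or to prostaglandin E2 held 1 rise and 0 falls among 22 measured with PDGF-AB, where 0.331% of all genes were called. They held 0 rises and 1 fall at AG1296 10 uM (1.88% of all genes), 1 rise and 1 fall at 1 uM (3.2%), and 0 rises and 1 fall between the doses (0.376%). An unadjusted p under 0.05 was seen for 7 of the 22 with PDGF-AB (8.55% of all genes) and 4 at 10 uM (11.4%). At 1 uM it was seen for 6 (13.1%) and between the doses for 4 (9.07%). Ereg, the growth factor epiregulin, was at 8.95, 8.87 and 8.95 with PDGF-AB, 8.50, 8.48 and 8.56 with AG1296 10 uM, at a mean of 9.03 ± 0.03 (SD, n = 3) with AG1296 1 uM, and at 8.99, 9.11 and 8.92 in untreated cells. The 10 uM arrays lay below all others, and the 1 uM arrays overlapped the untreated ones. It fell by 0.50 (SE 0.08) at 10 uM against untreated (limma, adjusted p = 0.00487, kept in 20 of 20 settings) and by 0.52 (SE 0.08) against 1 uM (adjusted p = 0.0152). That difference between doses was lost without any 1 of the 6 inhibitor arrays (up to 0.0828) and in the fit of 6 arrays (0.0854).

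Nr4a1, an orphan nuclear receptor and immediate early gene, was at 5.79, 6.01 and 5.87 with PDGF-AB, 5.40, 5.56 and 5.23 with AG1296 10 uM, 5.41, 5.23 and 5.36 with AG1296 1 uM, and 5.31, 5.21 and 5.20 in untreated cells. It rose by 0.65 ± 0.10 (limma, adjusted p = 0.0144) and stood at 0.15 at AG1296 10 uM and 0.09 at 1 uM. The call was lost in 6 of 20 settings, among them those that removed any 1 untreated array or PDGF-AB replicate 2 or 3 (up to 0.091). At 1 uM Pde3b, a phosphodiesterase that breaks down cAMP, rose by 0.58 ± 0.11 (adjusted p = 0.0119), and Fgf7, a growth factor for epithelium, fell by 0.54 (SE 0.12; adjusted p = 0.0277). Removing untreated replicate 1 or AG1296 1 uM replicate 1 or 2 ended the Pde3b call (up to 0.0725). Removing any 1 of the 3 untreated or 3 AG1296 1 uM arrays ended the Fgf7 call (up to 0.114), and so did median centring (0.0521).

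**Figure D5:**
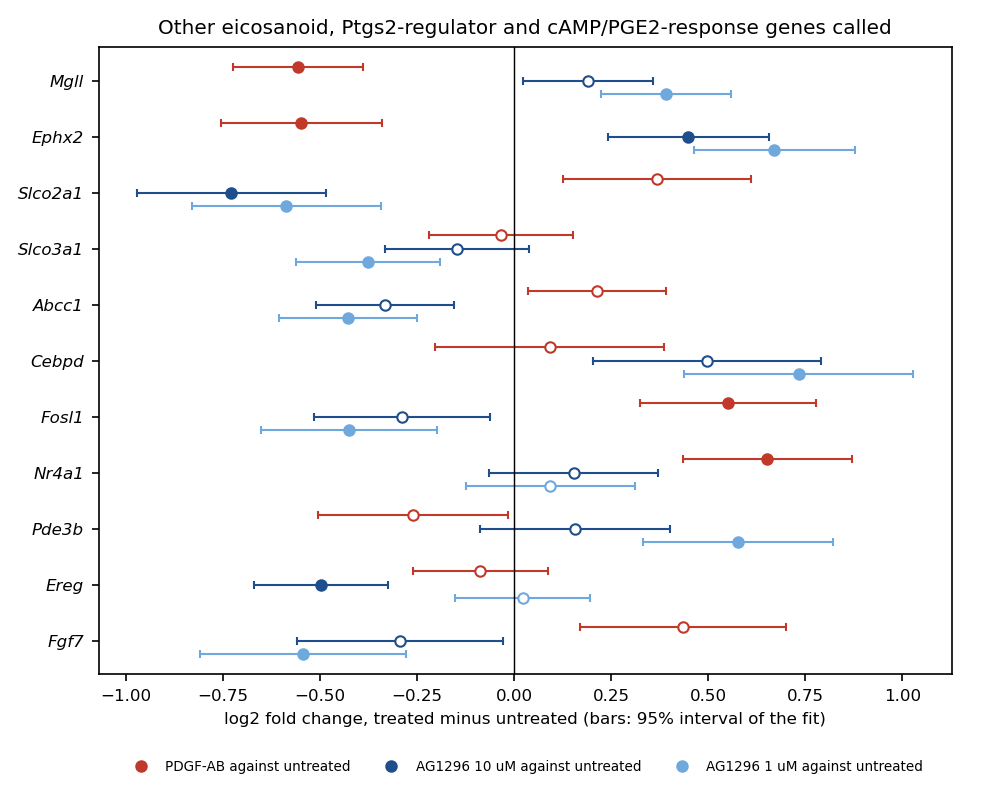
Log2 fold change against untreated, with the 95% interval of the fit (n = 3 arrays per group), of the 11 listed genes outside the members that were called in any comparison; filled points passed at an adjusted p under 0.05 over all genes. Slco2a1 lies below 0 at both AG1296 doses (-0.73 and -0.59), and Ephx2 below 0 with PDGF-AB (-0.55) and above 0 at both doses (0.45 and 0.67).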

How the data were processed

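Per the labels' protocols, RNA was labelled with the Affymetrix WT kit and read in 1 colour. The deposited files hold log2 expression, made by the authors with RMA (background subtraction, normalization and probe summary) per the submitters' processing notes, which also name limma; the sources used here give no versions or settings. The range of the values gave the log base. They were used with no further normalization.

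Of 28853 probe sets, 21789 had 1 gene symbol; for each gene the one with the highest mean was kept, giving 19938 genes. limma 3.58.1 (R 4.3.3) was fitted to all 12 arrays with 1 mean per group; each test was two-sided, and calls needed an adjusted p (Benjamini-Hochberg, over all genes) under 0.05. Named were the 9 members, every listed gene called in any of the 4 comparisons (11, under a limit of 25), and the 5 nearest patterns. The members and lists were chosen with earlier results of these data known. On simulated data for AG1296 10 uM against untreated (19938 genes, 5 sets of 200 changed genes) 47.2% of changes of 0.5 and 98.8% of changes of 1 on the log2 scale were recovered, with 5.78% false calls. The simulated noise was normal, independent between genes and arrays, and drawn with the spread that the fit had estimated. It held no likeness between same-numbered arrays, so these rates describe that setting and may be too favourable for the real arrays. Separate cultures or animals are not named in the labels, so the p-values cover the spread between arrays only. Precision is limited by the number of arrays. The alternatives tried were 20 settings, 12 of which left out 1 array.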

Additional observations from a re-analysis of the deposited data

How the results depend on the processing

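None of the alternatives turned the sign of a called value, and the falls of Ptgs2 and Pla2g4a at both AG1296 doses were kept in all 20. The members called with PDGF-AB were 0, and 1 (Ptger4) with dim genes left out, with an intensity trend and robust moderation and with a replicate block. Between 10 uM and 1 uM they were 0, and 0 to 1 when 1 array was left out (Hpgd). At AG1296 1 uM they were 2 and up to 3, at 10 uM 2 throughout, and in the F test 3, with 2 to 4 when 1 array was left out. The number of genes called over the whole array moved by more than 1.5 times in some settings. It stayed within 1.5 times with all single-symbol probe sets, the mean of a gene's probe sets, quantile normalization, median centring and a replicate block. With dim genes left out the genes called were 140 for PDGF-AB (66 in the fit reported), 676 for AG1296 10 uM (375), 1016 for 1 uM (639), 174 between the doses (75) and 1559 in the F test (997). With an intensity trend and robust moderation they were 160, 686, 1010, 209 and 1610, and with only the 6 arrays compared 7, 218 and 14 for PDGF-AB, 10 uM and the doses. Leaving out 1 array gave 21 to 62 for PDGF-AB, 219 to 434 for 10 uM, 349 to 718 for 1 uM and 16 to 82 between the doses. In the F test it gave 731 to 901, within 1.5 times of the fit reported. The fit with dim genes left out tests fewer genes, and the leave-out fits and those of only the 6 arrays compared use fewer arrays. For the fit with an intensity trend and robust moderation the cause was not tested. The labels give same-numbered arrays only a shared number, but their values were somewhat alike. The correlation of their deviations from the group means ran from -0.03 to 0.30, with a median of 0.11. It exceeded 0.1 in 9 of 18 pairs, and 9 of 12 arrays correlated best with their own number. For the 36 pairs with different numbers it ran from -0.24 to 0.18, with a median of -0.03. What same-numbered arrays shared was not tested, and the fit reported had no replicate block. The replicate block gave 0 to 1 further member calls, named above, and ended both calls of Fosl1 (adjusted p = 0.08 with PDGF-AB and 0.064 at 1 uM). It also ended the PDGF-AB call of Ch25h (limma, adjusted p = 0.0599). The F test was chosen after seeing the data.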
